A study of Mus musculus with 7 samples.

Results

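The intercalated disc junction genes are 10 genes whose proteins join one cardiomyocyte to the next. They were taken by name from a table of 23847 gene rows, and each had 1 row: Dsg2, Dsc2, Dsp, Pkp2, Jup, Cdh2, Ctnna3, Ctnnb1, Tjp1 and Gja1. The RNA was from ventricles of male mice after trans-aortic banding (TAB, 3 libraries) or a sham operation (Sham, 4 libraries). Banding ties a thread around the aorta so that the left ventricle pumps against a higher pressure, and in Sham mice the aorta was laid open to view and the thread left untied. All mice were 8 weeks old at the operation and carry an age label of 12 weeks. No genotype, strain or cardiac function is given in the sources used here, and the labels do not tell whether libraries stem from different mice. The p-values therefore reflect how far the libraries vary, which may be technical.

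Intercalated discs hold cardiomyocytes together end to end and let them contract as one. Desmosomes tie the desmin filaments of neighbouring cells together through desmosomal cadherins (Dsg2, Dsc2), plaque proteins (Jup, Pkp2) and the filament linker desmoplakin (Dsp). Adherens junctions tie the actin of the sarcomeres together through N-cadherin (Cdh2) and catenins, and in the heart both kinds of junction mix in a zone called the area composita. Gap junctions, made in ventricular muscle mainly of connexin 43 (Gja1), pass the electrical impulse, with ZO-1 (Tjp1) at their edge. In humans, variants of the desmosomal genes are the main known cause of arrhythmogenic cardiomyopathy, and loss of connexin 43 from the disc is a known feature of overloaded and failing hearts.

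To show where transcription of some of these genes starts, the RefSeq promoter windows (GRCm38.p6, 250 bases before to 50 after a start site) of Dsp and Ctnnb1, members called lower and higher below, and of Gja1 are printed here 5′ to 3′. RefSeq entries were matched by symbol for 6 of the 10 members. Both strands were searched for 6 motifs. The M-CAT motif of TEAD factors was read as CATTCC and the motif of GATA factors as AGATAA. The motif of TCF and LEF factors, the partners of beta-catenin, was read as CTTTGAT and that of AP-1 as TGANTCA, and the CArG box of SRF and the MEF2 motif were searched as well. Capitals mark a match, and windows without capitals held none of these letters.
Dsp (chr13:38151044-38151343, plus strand): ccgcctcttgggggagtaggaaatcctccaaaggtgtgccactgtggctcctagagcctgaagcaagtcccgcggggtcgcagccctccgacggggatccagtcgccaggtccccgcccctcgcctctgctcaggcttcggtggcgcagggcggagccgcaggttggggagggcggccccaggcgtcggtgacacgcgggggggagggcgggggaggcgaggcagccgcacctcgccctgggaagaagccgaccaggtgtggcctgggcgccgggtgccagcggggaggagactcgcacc
Ctnnb1 (chr9:120933150-120933449, plus strand): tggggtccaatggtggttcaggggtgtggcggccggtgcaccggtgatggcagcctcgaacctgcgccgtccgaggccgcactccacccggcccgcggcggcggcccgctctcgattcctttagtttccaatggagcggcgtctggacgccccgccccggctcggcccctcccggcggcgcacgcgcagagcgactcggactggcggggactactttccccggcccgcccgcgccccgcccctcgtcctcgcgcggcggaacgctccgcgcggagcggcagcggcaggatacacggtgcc
Gja1 (chr10:56377050-56377349, plus strand): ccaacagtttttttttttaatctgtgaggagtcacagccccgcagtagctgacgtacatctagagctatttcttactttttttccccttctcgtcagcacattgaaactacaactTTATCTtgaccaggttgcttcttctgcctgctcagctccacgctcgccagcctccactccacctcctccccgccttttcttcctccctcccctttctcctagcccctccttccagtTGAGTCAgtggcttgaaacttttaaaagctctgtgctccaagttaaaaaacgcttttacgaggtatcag
The Gja1 window held 1 GATA match on the minus strand, 135 to 130 bases before the start site, and 1 AP-1 match 19 to 13 bases before it. Of all 32851 RefSeq windows, 11.2% held the GATA letters and 7.81% the AP-1 letters, against 14.7% for M-CAT, 3.73% for TCF/LEF, 1.63% for the CArG box and 0.557% for MEF2. The Gja1 window was 47.7% G and C with 8 CpG pairs, whereas the Dsp window was 73% G and C with 27 CpG pairs and the Ctnnb1 window 75.3% with 46. The windows of Jup, Tjp1 and Ctnna3 at the start given in the deposited table held no match either. These matches describe letters and are not evidence of binding.

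Of the 10 members, 2 rose in TAB (Pkp2 and Ctnnb1), 2 fell (Dsg2 and Dsp) and 6 were not called (limma on log2 of FPKM + 1, Benjamini-Hochberg adjusted p under 0.05 over all 11601 tested genes). FPKM are fragments scaled to transcript length and to the depth of the library, and a gene was tested where it reached 1 FPKM in at least 3 of the 7 libraries, as all 10 members did. Depth, estimated from low values that are near multiples of 1 fragment, was 10800000 to 12150000 fragments a library. At these depths, 63.8% (TAB 1) to 71.4% (Sham 1) of the low values lay within 5% of whole fragments. A doubled depth would fit the same steps and was set aside by rule, so the estimate is rough. The same fit called 20.3% of all tested genes, 13.3% higher and 7.05% lower in TAB, and the members' count was not tested against that share. Of the calls over all genes, 65.3% were higher, against 45.4% after median-of-ratios rescaling and 46.0% after quantile normalization. The TAB and Sham libraries did not overlap in 5 members, Dsg2, Dsc2, Dsp, Pkp2 and Ctnnb1, and in 31.1% of all tested genes. The median log2 fold change (TAB minus Sham) was -0.12 for the members and 0.05 for all tested genes. The largest difference among the members, that of Dsg2, was exceeded in size by 9.49% of tested genes. The rise of Pkp2 was called under each of the 19 alternative settings tried, while the other calls depended on the setting or on single libraries, as given with each gene.

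**Figure D1:**
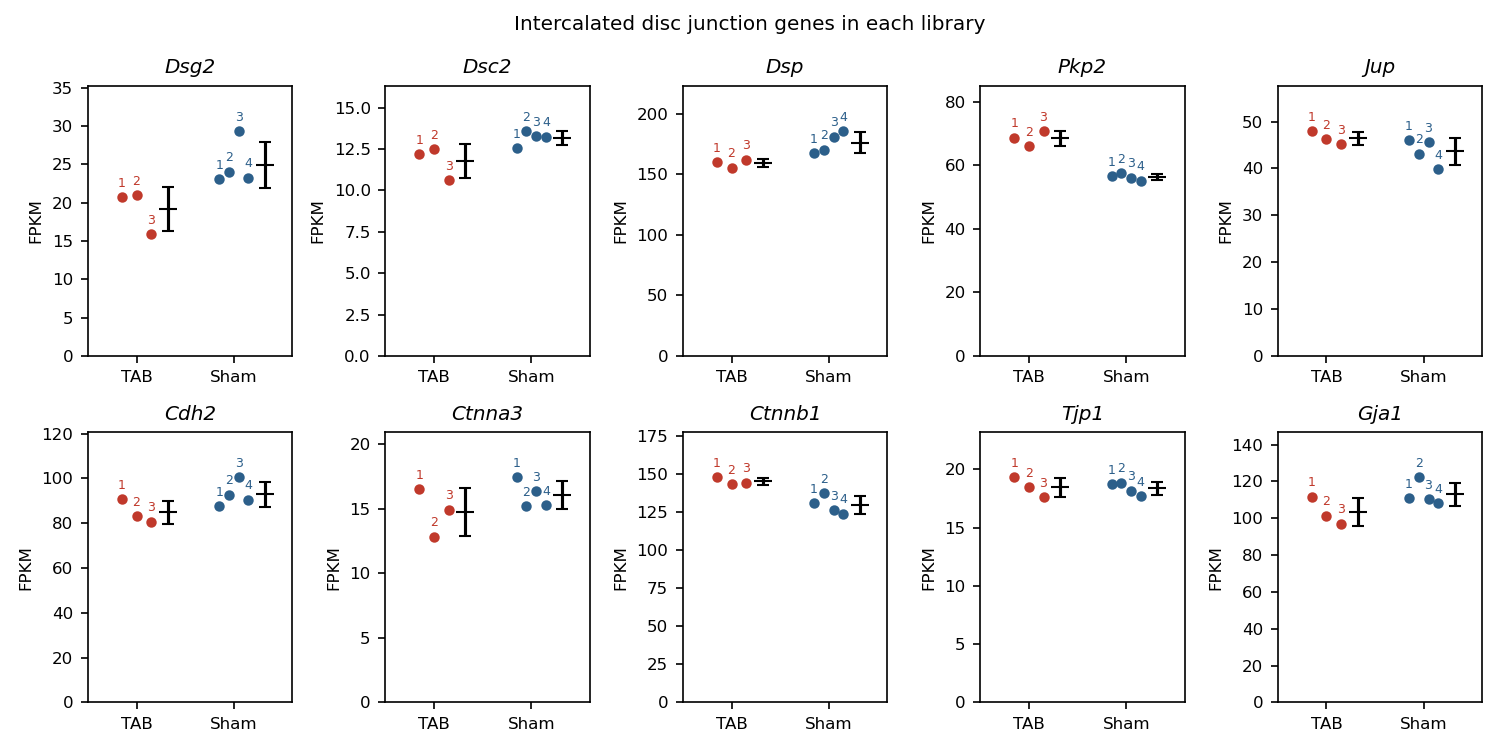
Each panel plots the FPKM of 1 member (vertical axis, from 0) in the 3 TAB libraries (red) and the 4 Sham libraries (blue), with replicate numbers beside the points and mean ± SD in black. Pkp2 and Ctnnb1 lie higher in every TAB library than in any Sham library, and Dsg2, Dsc2 and Dsp lower, while the other 5 members overlap.

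Of the 2 desmosomal cadherins, the least abundant members of the desmosome, Dsg2 was called lower in TAB and Dsc2 was not called. Desmoglein 2, encoded by Dsg2 (mm10, chromosome 18, 20558116 to 20604526), is the desmoglein that spans the gap between cardiomyocytes. Dsg2 stood at 20.7, 20.9 and 15.8 FPKM in TAB 1 to 3 and at 23.1, 24.0, 29.3 and 23.2 FPKM in Sham 1 to 4. The groups did not overlap, with TAB 3 the lowest library and Sham 3 the highest. Dsg2 averaged 19.2 ± 2.88 FPKM (SD, n = 3) in TAB and 24.9 ± 2.98 FPKM (SD, n = 4) in Sham, a ratio of 0.769, and fell by 0.37 ± 0.11 (SE) on the log2 scale (limma adjusted p = 0.0437). This call was lost in 12 of the 19 alternatives, among them the fits without any single library other than TAB 2 (adjusted p from 0.0568 to 0.113 over those 6), and without TAB 3 the log2 fold change was -0.24.

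Desmocollin 2, encoded by Dsc2 (chromosome 18, 20030798 to 20059505), is the partner of desmoglein 2 in the same junction. Dsc2 had 12.2, 12.5 and 10.6 FPKM in TAB 1 to 3 and 12.5, 13.6, 13.3 and 13.3 FPKM in Sham 1 to 4. The groups did not overlap, but TAB 2 (12.50) and Sham 1 (12.55) nearly touched, and the difference was not called (log2 fold change -0.15, 95% interval -0.30 to -0.01, adjusted p = 0.129). It was called lower in 1 alternative, median-of-ratios rescaling (adjusted p = 0.0436). Summed, both cadherins came to 26.5 to 33.4 FPKM in TAB and 35.6 to 42.6 FPKM in Sham, without overlap, and Dsg2 was 1.62 ± 0.114 times Dsc2 in TAB and 1.89 ± 0.216 times in Sham (SD, n = 3 and 4), a description with no test.

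The plaque genes of the desmosome went different ways. Desmoplakin, encoded by Dsp (chromosome 13, 38151294 to 38198577), anchors the desmin filaments to the plaque and was the most abundant member in both groups. Dsp had 160, 155 and 162 FPKM in TAB 1 to 3, against 167, 170, 181 and 186 FPKM in Sham 1 to 4. Every TAB library lay below every Sham library, by a narrow margin between TAB 3 and Sham 1. Dsp averaged 159 ± 3.30 FPKM (SD, n = 3) in TAB and 176 ± 8.69 FPKM (SD, n = 4) in Sham, and fell by 0.14 ± 0.05 (SE) on the log2 scale (limma adjusted p = 0.0494). This call was lost in 13 of the 19 alternatives (adjusted p over all 19 from 0.0157 to 0.121), including the fits without any single library other than Sham 1.

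Plakophilin 2, encoded by Pkp2 (chromosome 16, 16213345 to 16272712), links desmoplakin to the cadherins and is the human gene most often affected in arrhythmogenic cardiomyopathy. Pkp2 had 68.7, 66.0 and 70.8 FPKM in TAB 1 to 3, against 56.5, 57.5, 56.1 and 55.2 FPKM in Sham 1 to 4. The lowest TAB library stood above the highest Sham library, and the spread within each group was small. Pkp2 averaged 68.5 ± 2.41 FPKM (SD, n = 3) in TAB and 56.3 ± 0.948 FPKM (SD, n = 4) in Sham, a ratio of 1.22, and rose by 0.28 ± 0.04 (SE) on the log2 scale (limma adjusted p = 0.00161). Over the 19 alternatives its log2 fold change lay between 0.22 and 0.30 and its adjusted p between 0.00114 and 0.0174.

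Plakoglobin, encoded by Jup (chromosome 11, 100368856 to 100397790), is a close relative of beta-catenin that serves in desmosomes and adherens junctions alike. Jup had 48.0, 46.2 and 45.2 FPKM in TAB 1 to 3 and 46.1, 43.1, 45.7 and 39.8 FPKM in Sham 1 to 4. The groups overlapped, and the difference was not called (log2 fold change 0.09, 95% interval -0.04 to 0.22, adjusted p = 0.297, and adjusted p of at least 0.219 in every alternative).

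Some ratios between desmosome transcripts, which any common scaling of a library leaves as they are, did not overlap between the groups. The ratio of Pkp2 to Dsp was 0.430, 0.425 and 0.437 in TAB 1 to 3, against 0.338, 0.338, 0.310 and 0.297 in Sham 1 to 4. TAB lay above Sham in every library, and its mean ratio was 1.34 times that of Sham. Pkp2 was 3.15 to 4.47 times Dsg2 in TAB and 1.91 to 2.45 times in Sham, again without overlap. Both ratios set a gene called higher over a gene called lower in the same values, so they are no separate result. The ratio of Jup to Dsp was 0.279 to 0.300 in TAB and 0.214 to 0.275 in Sham, so the groups nearly touched. It also holds Dsp, called lower in the same values, and is no separate result either. The summed FPKM of the 5 desmosomal members overlapped between the groups, at 301 to 309 in TAB and 306 to 325.3 in Sham. These ratios and sums describe the libraries and were not tested.

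**Figure D2:**
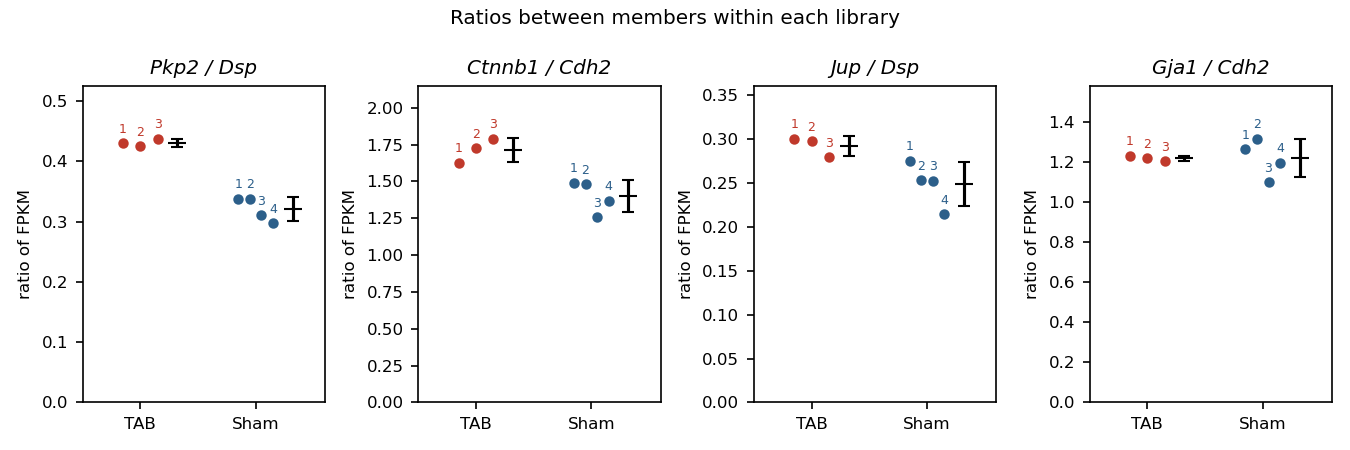
Ratios of the FPKM of 2 members within each library (vertical axis, from 0) for TAB (red) and Sham (blue), with replicate numbers beside the points and mean ± SD in black. The ratios of Pkp2 to Dsp, of Ctnnb1 to Cdh2 and of Jup to Dsp lay higher in every TAB library, whereas Gja1 to Cdh2 overlapped, at 1.20 to 1.23 in TAB and 1.10 to 1.32 in Sham. All ratios reuse the members' values and are no separate result.

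Among the adherens junction members, the catenin that also acts in Wnt signalling rose, while N-cadherin and the alpha-catenin gene Ctnna3 were not called. The more abundant alpha-catenin gene, Ctnna1, is not a member and was called lower, as given below. N-cadherin, encoded by Cdh2 (chromosome 18, 16588877 to 16809049), is the classical cadherin of the disc. Cdh2 had 90.8, 83.0 and 80.6 FPKM in TAB 1 to 3 and 87.7, 92.8, 100 and 90.5 FPKM in Sham 1 to 4. TAB 1 lay within the Sham range, and TAB 2 and TAB 3 lay below it. The difference was not called (log2 fold change -0.13, 95% interval -0.26 to 0.00, adjusted p = 0.139), except under median-of-ratios rescaling (adjusted p = 0.0400).

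Beta-catenin, encoded by Ctnnb1 (chromosome 9, 120933400 to 120960507), binds the tail of N-cadherin and, when freed and stable, enters the nucleus as the effector of canonical Wnt signalling. Ctnnb1 had 148, 143 and 144 FPKM in TAB 1 to 3, against 131, 137, 126 and 124 FPKM in Sham 1 to 4. No Sham library reached the lowest TAB library. Ctnnb1 averaged 145 ± 2.35 FPKM (SD, n = 3) in TAB and 130 ± 5.85 FPKM (SD, n = 4) in Sham, a ratio of 1.12, and rose by 0.16 ± 0.04 (SE) on the log2 scale (limma adjusted p = 0.0260). The call was lost in 9 of the 19 alternatives (adjusted p over all 19 from 0.0162 to 0.124). They included the fits without TAB 1, TAB 3, Sham 3 or Sham 4 (adjusted p from 0.0586 to 0.101), and the log2 fold change was 0.10 after either median-of-ratios rescaling or quantile normalization. Relative to Cdh2, Ctnnb1 was 1.63 to 1.79 times as high in TAB and 1.26 to 1.49 times as high in Sham, without overlap. That ratio sets a gene called higher over a gene with a negative log2 fold change in the same values. It is no separate result and was not tested.

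Alpha-T-catenin, encoded by Ctnna3 (chromosome 10, 63430098 to 65003667), is an alpha-catenin largely restricted to heart and testis that binds plakophilin 2 and so couples both junction types. Ctnna3 had 16.5, 12.9 and 14.9 FPKM in TAB 1 to 3 and 17.4, 15.2, 16.4 and 15.3 FPKM in Sham 1 to 4. The groups overlapped and the difference was not called in any fit (log2 fold change -0.12, 95% interval -0.30 to 0.06, adjusted p = 0.34). The gene Lrrtm3 lies within Ctnna3 and was listed at no more than 0.187 FPKM in any library.

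The gap junction channel gene and the scaffold gene were not called. Connexin 43, encoded by Gja1 (chromosome 10, 56377300 to 56390419), had 112, 101 and 97.2 FPKM in TAB 1 to 3 and 111, 122, 110 and 108 FPKM in Sham 1 to 4. TAB 1 lay inside the Sham range, and TAB 2 and TAB 3 lay below it. The log2 fold change of Gja1 was -0.13 (95% interval -0.26 to 0.00, adjusted p = 0.154), and it was called lower under median-of-ratios rescaling alone among the 19 alternatives (adjusted p = 0.0305). ZO-1, encoded by Tjp1 (chromosome 7, 65296165 to 65371244), had 19.3, 18.4 and 17.6 FPKM in TAB 1 to 3 and 18.7, 18.8, 18.2 and 17.7 FPKM in Sham 1 to 4. Both groups covered the same range, and the interval of the difference ran from -0.11 to 0.12 on the log2 scale (adjusted p = 0.947).

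**Figure D3:**
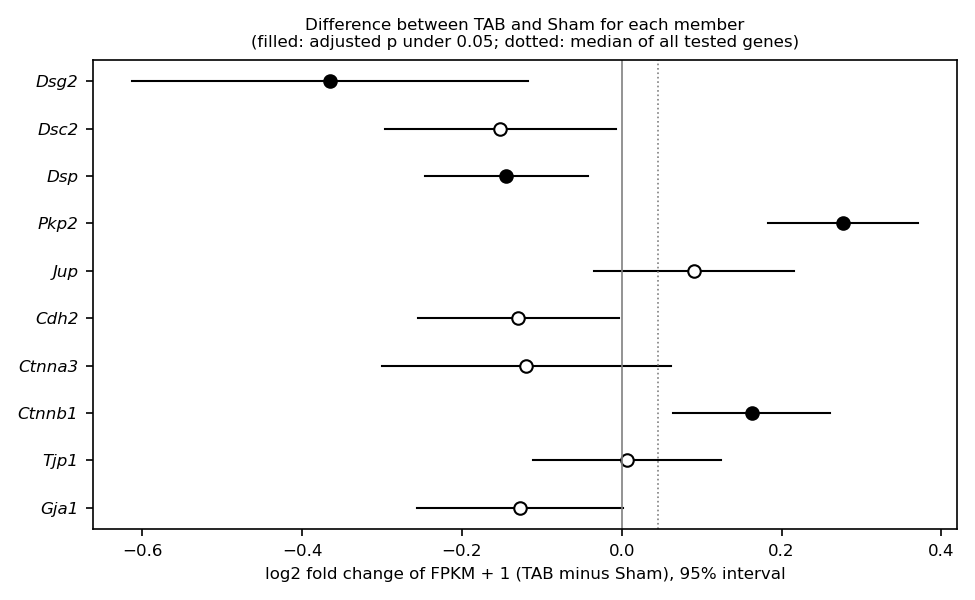
Log2 fold change of FPKM + 1 (TAB minus Sham) of each member with its 95% interval, members running down the page by role. Filled points had a limma adjusted p under 0.05 (Dsg2, Dsp, Pkp2 and Ctnnb1), the solid line marks 0 and the dotted line the median of all tested genes, 0.05.

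In both groups the order of the members' levels was the same. It ran from Dsp through Ctnnb1, Gja1, Cdh2, Pkp2, Jup, Dsg2, Tjp1 and Ctnna3 to Dsc2, on the FPKM scale, which is per transcript length. Neighbours in that order did not overlap between libraries, with the exception of Dsg2 and Tjp1 in TAB, where Dsg2 averaged 19.2 FPKM and Tjp1 18.5 FPKM. Summed over the 10 members, 659 to 695 FPKM were found in TAB and 671 to 697 FPKM in Sham. The spread between libraries was widest for Dsg2, with a coefficient of variation of 15.04% in TAB and 12.0% in Sham, and narrowest for Ctnnb1 in TAB (1.62%) and Pkp2 in Sham (1.68%).

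The libraries also differed in markers of other cell types, and Ctnnb1, Jup, Tjp1 and Cdh2 are known to be expressed outside cardiomyocytes too. In bulk tissue, fewer cells of a type and less RNA per cell cannot be told apart. Summed over 10 cardiomyocyte markers, the libraries held 67743 to 75147 FPKM in TAB and 68975 to 75477 FPKM in Sham, with 2 markers higher, 3 lower and 5 not called. The sum over 8 endothelial markers was 267 to 301 FPKM in TAB and 222 to 255 FPKM in Sham, with 4 markers called higher, and that over 8 fibroblast markers 917 to 1097 FPKM in TAB and 778 to 892 FPKM in Sham, with 5 called higher. Smooth muscle and pericyte markers summed to 274 to 311 FPKM in TAB and 246 to 255 FPKM in Sham, with 4 of 8 called higher, and macrophage markers to 166 to 197 FPKM in TAB and 149 to 168 FPKM in Sham, with 3 of 7 tested called higher. The part of these cells in the rise of Ctnnb1, or in the values of any other member, was not tested. Over all tested genes, 13.3% were called higher and 7.05% lower, and the marker counts were not tested against that share. The endothelial marker Kdr, named after its values were seen, had a log2 fold change of -0.18 and was not called. Of 8 mesothelial and epicardial markers, cells that also make desmosomes, Upk1b was at 0 in every library and the highest value was 1.52 FPKM, that of Wt1. Their sum was 1.18 to 2.23 FPKM in TAB and 1.32 to 2.20 FPKM in Sham. Atrial markers varied within both groups, the sum over 5 being 34.3 to 310 FPKM in TAB and 40.8 to 291 FPKM in Sham, and were highest in TAB 3 and Sham 2. Without those 2 libraries, Pkp2 and Ctnnb1 remained called higher (adjusted p = 0.0174 and 0.0427) and no member was called lower (2 in the full fit), with log2 fold changes of -0.26 for Dsg2 and -0.17 for Dsp (adjusted p = 0.151 and 0.0923). The highest single value was 1.68 FPKM among 4 adipocyte markers and 2.53 FPKM among 5 markers of Schwann cells and neurons, and none of either list was called.

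**Figure D4:**
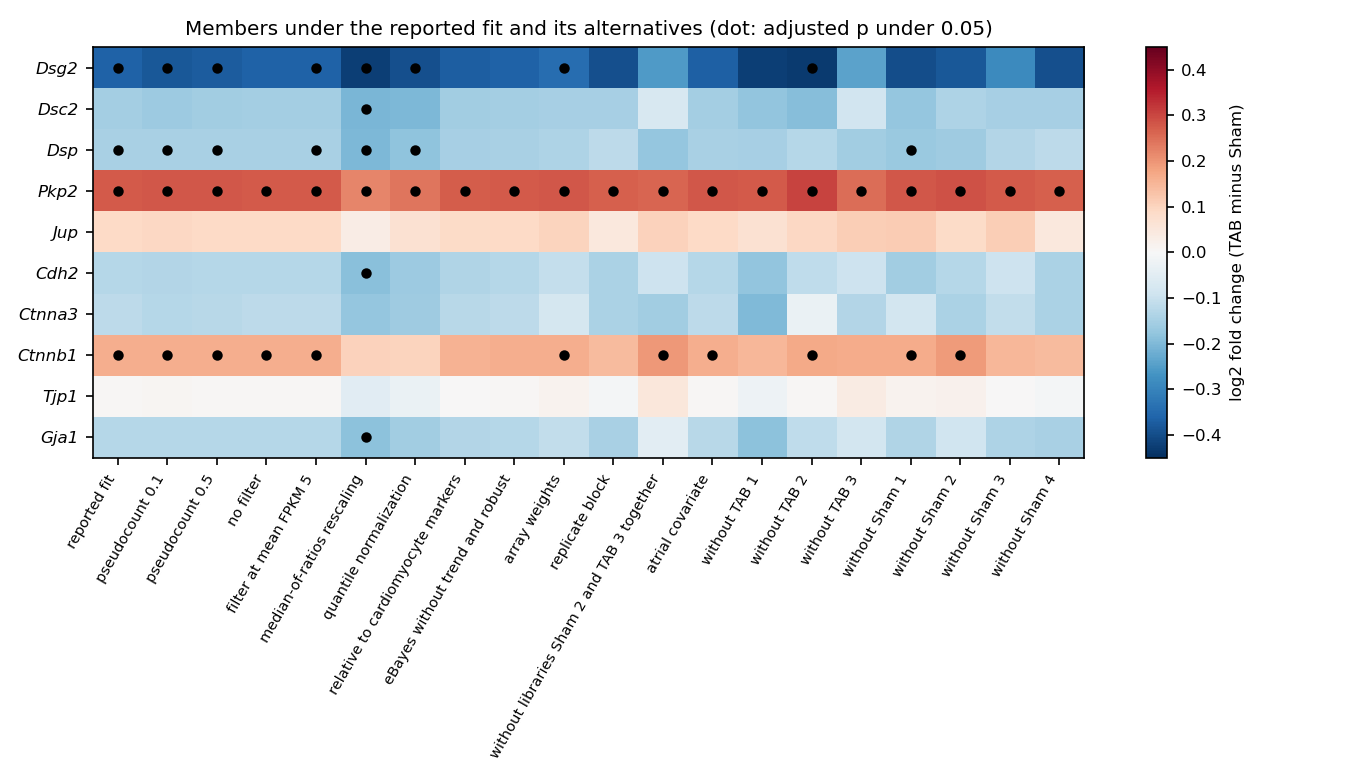
Log2 fold change (TAB minus Sham, colour scale) of each member (rows) in the reported fit and its 19 alternatives (columns), with a dot where the adjusted p was under 0.05. Pkp2 carries a dot in every column, Ctnnb1 in the reported fit and 10 alternatives, Dsg2 in the reported fit and 7, and Dsp in the reported fit and 6.

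The wider families of junction genes were read against the same fit. That fit called 13.3% of all tested genes higher and 7.05% lower, and no list was tested against those shares. Of 13 other desmosome genes, 3 passed the filter on low values, of which 1 rose, 1 fell and 1 was not called. The 10 below the filter include the desmogleins, desmocollins and plakophilins known from skin (Dsg1a, Dsg1b, Dsg1c, Dsg3, Dsg4, Dsc1, Dsc3, Pkp1 and Pkp3), none of which exceeded 0.176 FPKM in any library, whereas Dsg2, Dsc2, Pkp2 and Pkp4 passed the filter. Perp, a membrane protein of desmosomes, rose to 90.7 ± 2.35 FPKM (SD, n = 3) in TAB, against 80.5 ± 4.03 FPKM (SD, n = 4) in Sham (limma adjusted p = 0.0304), a call lost in 9 of 19 alternatives, those without TAB 1, TAB 2, TAB 3, Sham 1 or Sham 3 among them (adjusted p from 0.0514 to 0.091). Periplakin (Ppl), a relative of desmoplakin, was at 1.33 ± 0.370 FPKM in TAB and 2.00 ± 0.257 FPKM in Sham and fell by 0.37 on the log2 scale (limma adjusted p = 0.0428). That call was lost in 9 of 18 alternatives, including the fits without any single library other than TAB 2 (adjusted p from 0.051 to 0.155). Pkp4, named after its values were seen, had 34.2 ± 0.785 FPKM in TAB and 35.2 ± 2.03 FPKM in Sham and was not called.

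Of 15 other cadherin, catenin and nectin genes, 10 were tested, of which 3 rose, 1 fell and 6 were not called, and the median log2 fold change was 0.06. The shares over all tested genes were 13.3% higher and 7.05% lower, and the difference from them was not tested. The gene that fell was Ctnna1, the widely expressed alpha-E-catenin and the more abundant alpha-catenin of these libraries. Ctnna1 had 176, 171 and 175 FPKM in TAB 1 to 3, against 207, 214, 210 and 211 FPKM in Sham 1 to 4, with a log2 fold change of -0.28 ± 0.04 (SE, limma adjusted p = 0.000721) that was called in all 19 alternatives. Ctnna3 made up 7.00% to 8.59% of the summed Ctnna1 and Ctnna3 FPKM in TAB and 6.63% to 7.76% in Sham, which overlapped. Arvcf, a catenin of the p120 family, rose by 0.35 and Afdn (afadin, which links nectins to actin) by 0.33 on the log2 scale (limma adjusted p = 0.00371 and 0.011), both called in every alternative in which they were tested. Cdh5, the cadherin of endothelial cells, rose by 0.30 (limma adjusted p = 0.0123) and was named after its values were seen. It is also 1 of the endothelial markers given above, and its call was lost in the fit without TAB 1 (adjusted p = 0.0585).

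None of 11 tested genes among 13 other tight junction and scaffold genes was called (unadjusted p under 0.05 for 3 of them), with a median log2 fold change of 0.02. After median-of-ratios rescaling 2 of them were called lower, after quantile normalization 3 were called lower, and without the filter 1 of 13 was called higher. Of 9 other connexin and pannexin genes 5 were tested, and 1 was called. This was Panx1, which forms channels to the cell exterior, at 1.45 ± 0.281 FPKM in TAB and 0.697 ± 0.0961 FPKM in Sham (limma adjusted p = 0.00572). Panx1 passed the filter through its TAB libraries alone, so it had to differ, and its log2 fold change depended on the pseudocount (0.53 with 1 and 0.95 with 0.1). Of 16 genes of beta-catenin turnover and its transcription partners 13 were tested, 12 were not called and 1 rose. That gene was Ctnnbip1, which encodes an inhibitor of the binding of beta-catenin to TCF factors, at 11.5 ± 0.0840 FPKM in TAB and 9.27 ± 0.199 FPKM in Sham (limma adjusted p = 0.00411, called in all 19 alternatives). Axin2, Tcf7 and Lef1, which are commonly read as targets or partners of canonical Wnt signalling, were listed at no more than 0.723 FPKM and were not tested.

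Of 22 genes of other proteins located at the disc all were tested, 9 rose, 6 fell and 7 were not called, with a median log2 fold change of 0.14. Over all tested genes, 13.3% were called higher and 7.05% lower, with a median of 0.05, and the difference between the list and other genes was not tested. Nrap, which anchors actin filaments at the disc, was at 292 ± 29.2 FPKM in TAB and 169 ± 10.7 FPKM in Sham, and Sorbs2, an adaptor protein of the disc and Z-disc, at 108 ± 11.1 FPKM in TAB and 73.2 ± 2.38 FPKM in Sham (SD, n = 3 and 4). The desmin gene Des, whose filaments end on desmoplakin, was at 1191 ± 84.5 FPKM in TAB and 891 ± 34.9 FPKM in Sham. Nrap, Sorbs2 and Des rose by 0.78, 0.56 and 0.42 on the log2 scale (limma adjusted p = 0.000125, 0.000322 and 0.000541) and were called in all 19 alternatives. The list's largest rise was that of Xirp2, an actin-binding Xin protein (1.45 ± 0.22 SE, limma adjusted p = 0.00755). Its largest falls were those of Kcnd2 (-0.67 ± 0.12 SE) and Kcnj2 (-0.49 ± 0.07 SE), with limma adjusted p = 0.00432 and 0.00129. Smaller falls included Tmem65, a membrane protein of the disc that binds connexin 43 in mice (-0.30 ± 0.05 SE), and Lmo7 (-0.21 ± 0.04 SE), with limma adjusted p = 0.00261 and 0.0058. Xirp2, Kcnd2, Kcnj2, Tmem65 and Lmo7 were named after their values were seen. Of them, Xirp2, Tmem65 and Lmo7 were called in all 19 alternatives. For Kcnd2 and Kcnj2 the alternatives were not summarised, so whether their calls held in each is not given here.

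**Figure D5:**
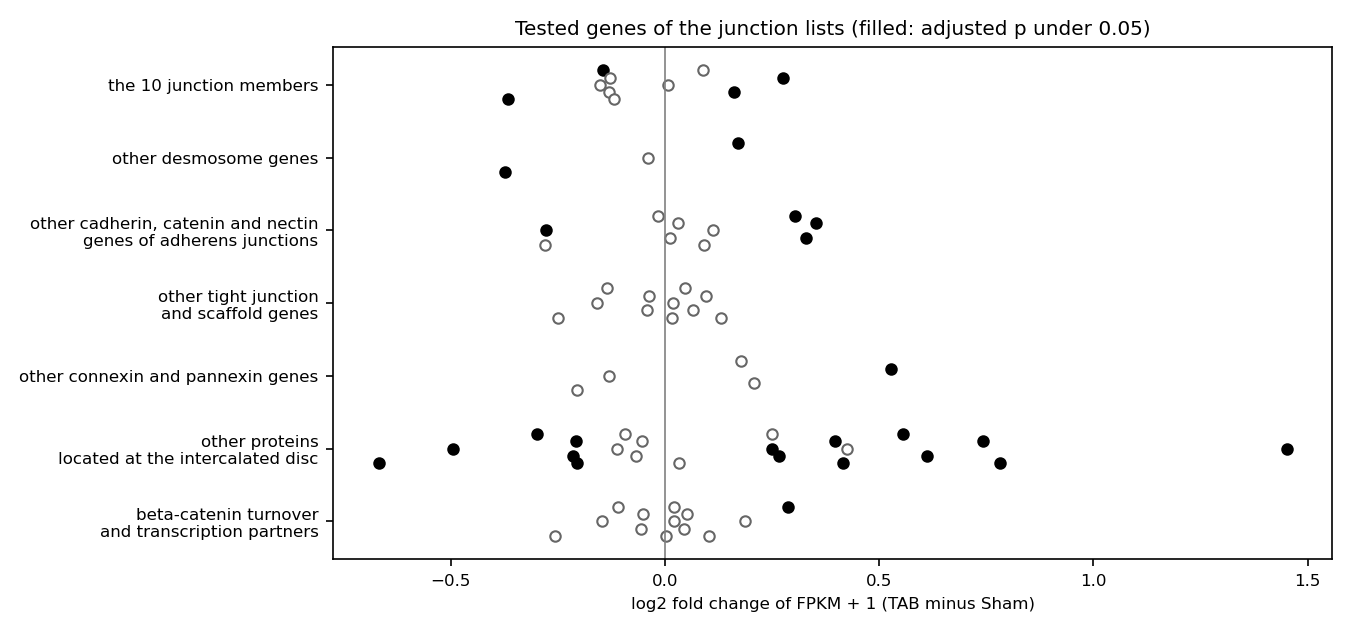
Log2 fold change of FPKM + 1 (TAB minus Sham) of every tested gene of the junction families, 1 row for the 10 members and 1 for each of 6 further lists, with filled points for a limma adjusted p under 0.05. The members lie between -0.37 and 0.28, within the range of the other proteins located at the disc, whose highest point is Xirp2 at 1.45.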

How the data were processed

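Poly(A) RNA of ventricular lysates was sequenced from stranded libraries, per the labels' protocols. FPKM per gene and library stand in 1 table as the authors deposited it. The submitters' processing notes name TopHat, Cufflinks and mm10, but no version or gene annotation is given there, nor how libraries were scaled to each other. Columns were matched to samples by the library names in the labels. Starts in the table count from 0, and 1 was added. In R 4.3.3, limma 3.58.1 was fitted to log2(FPKM + 1) of 11601 genes with at least 1 FPKM in at least 3 of the 7 libraries (eBayes with trend and robust options, two-sided, Benjamini-Hochberg threshold 0.05, 95% intervals), and was tested on simulated data. Fold changes on this scale understate those of low genes. Estimated fragments behind a member were lowest for Ctnna3, about 511, a counting error of 4.42%. This estimate sets a member's lowest FPKM against the lowest depth of any library, which need not be the same library. It also takes the longest annotated transcript as the member's length and rests on the rough estimate of depth. All members were named, with up to 3 called genes of smallest adjusted p per list, and exceptions are marked. Members and lists were chosen with earlier results of these data known. Alternatives changed the pseudocount, filter, scaling, covariates, weights, replicate block, variance model and libraries included. Protein sequences were not used here.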

Additional observations from a re-analysis of the deposited data

Results flagged for a closer look

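Dsg2 in Sham 3 stood apart from the other Sham libraries. Its value of 29.35 FPKM lay above 23.1, 24.0 and 23.2 FPKM in Sham 1, Sham 2 and Sham 4, and the gap to the nearest of them made up 0.848 of the range of the group, above Dixon's 95% critical value for 4 samples. Of the 10 members tested in this way, Dsg2 was the one that passed, and chance passes about 1 in 20 groups. Without Sham 3, the log2 fold change of Dsg2 (TAB minus Sham) was -0.29 with a limma adjusted p of 0.0713.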

How the results depend on the processing

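Among the members, Pkp2 was called higher in all 19 alternatives. The number of members called higher, 2 as reported, was 1 after median-of-ratios rescaling, after quantile normalization, relative to cardiomyocyte markers, with eBayes without trend and robust options, and with the replicate block, and 1 to 2 when single libraries were left out. The number called lower, 2 as reported, was 0 without a filter, relative to cardiomyocyte markers, with eBayes without those options, with the replicate block, with an atrial covariate and without Sham 2 and TAB 3 together. It was 1 with array weights, 5 after median-of-ratios rescaling, and 0 to 1 when single libraries were left out. The 5 were Dsg2, Dsc2, Dsp, Cdh2 and Gja1. The sign of Tjp1, never called, changed in 5 of 19 alternatives (-0.05 to 0.05). Over all genes, 1542 were called higher and 818 lower, against 959 and 395 without Sham 2 and TAB 3, and 875 to 1361 higher and 545 to 717 lower when single libraries were left out. After median-of-ratios rescaling 1250 were called lower. Of the 64 other junction genes tested, 8 were called lower as reported, 14 after quantile normalization, 5 with the replicate block, 5 without Sham 2 and TAB 3, and 5 to 9 when single libraries were left out. Deviations from the group means of libraries with the same replicate number correlated by 0.08, 0.17 and 0.17 for numbers 1 to 3. TAB 1 correlated best with Sham 3, TAB 2 with Sham 2 and TAB 3 with Sham 3. These are too few libraries to tell whether the replicate numbers pair them. The fit with the replicate block left out Sham 4, and in it 1241 genes were called higher and 652 lower. Without Sham 4 and without the block, 1361 were called higher and 717 lower. Both of these fits called 1 member higher and 0 lower. The cause of these changes was not tested. Summing repeated symbols was not run, as each member had 1 row.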
